A study of Mus musculus with 4 samples.

Results

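Cd52 encodes a very short glycoprotein that is tethered to the cell surface by a glycosylphosphatidylinositol (GPI) anchor. It is described here beside 9 genes that mark white blood cells: Ptprc for leukocytes of all kinds, Cd3e and Cd3g for T cells, Cd79a and Cd79b for B cells, and Csf1r, Adgre1, Cd68 and Lyz2 for macrophages. These 10 genes, of 22073 in the table, were listed by name to set Cd52 against the levels of leukocyte markers. Cd52 was chosen by its FPKM values in this same contrast, in which it was already known to be far lower in hemicastrated mice. The values of all 10 in the 2 groups are therefore given as a description without a test.

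Hemicastrated mice had lost the left testis before puberty (2 libraries), and control mice were sham-operated (2 libraries). All were KM mice, and the right testis was taken after body maturation. The exact age is not given in the labels, and the protocol text counts 3 mice per group where the design text and the libraries give 2. Poly(A) RNA of 4 individuals was sequenced, per the protocol (genomic DNA in the molecule label), so each library is taken as 1 mouse. The deposited unit is FPKM (fragments mapped to a transcript, scaled to its length and to the mapped total of the library). Since the samples are whole pieces of tissue, fewer cells of a type and less RNA per cell cannot be told apart.

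CD52 is known from blood cells and from the male tract. On lymphocytes and monocytes it is an abundant surface antigen, and in human T cells its soluble form signals through a sialic acid-binding receptor. In the male tract it is made by the epithelium of the epididymis, the coiled duct that follows the testis, and it is passed to the surface of sperm. Testicular macrophages are the main leukocytes of the normal testis, lying between the tubules and around the stem cell regions, while lymphocytes are scarce.

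The libraries had the profile of testis. The protamine gene Prm1, of late spermatids, ranked first in each of the 4, and Insl3, of Leydig cells, lay between 1232 and 1609 FPKM. In genes with very low values, 1 fragment was worth 1.14 times as much FPKM in hemicastrated 1 as in hemicastrated 2, 1.37 times as much as in control 1 and 1.16 times as much as in control 2. If FPKM was scaled to mapped fragments alone, these ratios are the depths of the 3 other libraries relative to hemicastrated 1. Absolute depth is not known. Some values of exactly 0 may be failed estimates, since the ribosomal protein genes Rpl13 and Rpl17 were listed at 0 in all 4 libraries.

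Cd52 was at a low level in hemicastrated testes and near the top of the table in control testes. Its level was 1.39 and 2.11 FPKM in hemicastrated mice, against 321.9 and 399.7 FPKM in control mice. No library of one group came near the other group. The mean was 1.75 ± 0.51 FPKM in hemicastrated mice and 360.8 ± 55.0 FPKM in control mice (SD, n = 2 each), a ratio of means of 206. On the log2(FPKM + 1) scale, which understates changes of low values, the difference was -7.04 (SE 0.16), hemicastrated minus control. Ranked from the highest value down, Cd52 stood at positions 10311 and 9236 in hemicastrated mice, against 105 and 71 in control mice.

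Each of the 9 leukocyte markers lay far below Cd52 in control testes. The order of mean levels in control mice was Cd52, Lyz2, Cd68, Csf1r, Adgre1, Cd3g, Ptprc, Cd3e, Cd79b and Cd79a. In that order the libraries of Cd68 and Csf1r, of Cd3g and Ptprc, and of Cd3e and Cd79b overlapped, and the other neighbours lay apart. In hemicastrated mice the order began with Lyz2, Cd68, Csf1r and Cd52, and the libraries of Csf1r and Cd52 overlapped. FPKM is scaled to transcript length, so these levels are set side by side as RNA levels, not as numbers of cells. The annotation that gave the lengths is not known, so levels of different genes compare only roughly. The ratio of Cd52 to these markers within leukocytes was not measured here.

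**Figure D1:**
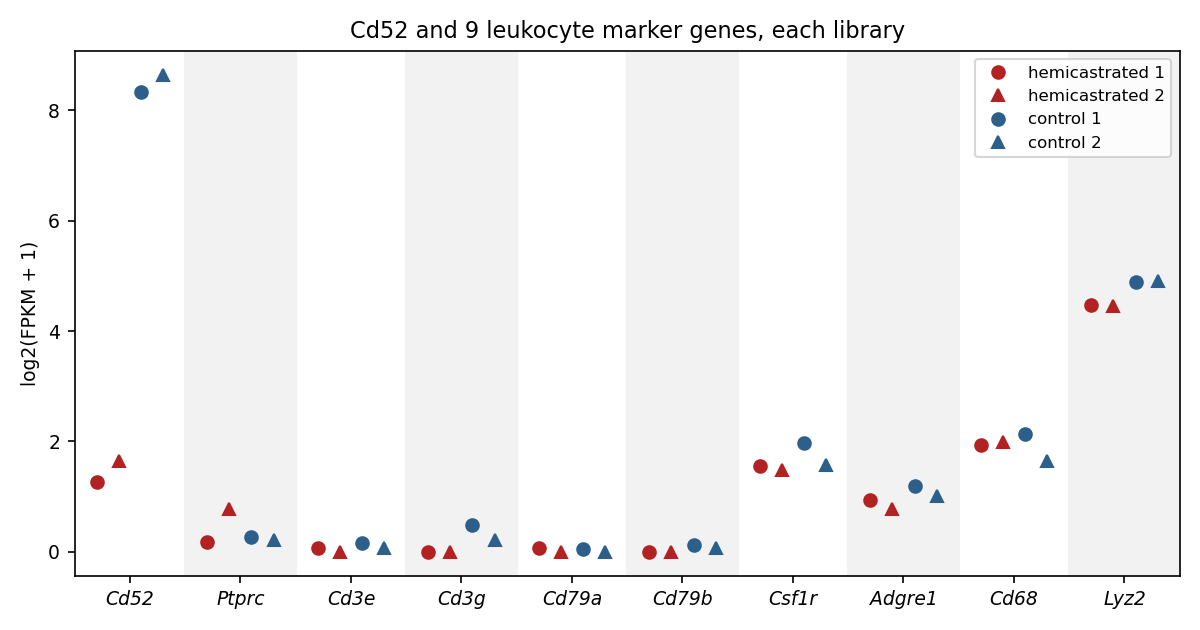
Level of Cd52 and of the 9 leukocyte markers as log2(FPKM + 1), 1 point per library, with hemicastrated mice in red and control mice in blue. Cd52 is at 1.39 and 2.11 FPKM in hemicastrated mice and at 321.9 and 399.7 FPKM in control mice, while the 4 points of each marker lie within 1 log2 unit.

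Ptprc (ENSMUSG00000026395, chromosome 1) encodes CD45, the phosphatase found on all nucleated blood cells. It was at 0.132 and 0.710 FPKM in hemicastrated mice, against 0.210 and 0.161 FPKM in control mice. Hemicastrated 2 was the highest library and hemicastrated 1 the lowest, so the groups overlapped. The mean was 0.421 ± 0.408 FPKM in hemicastrated mice and 0.186 ± 0.035 FPKM in control mice (SD, n = 2 each), the reverse of the order for Cd52. The summed level of the other genes of the leukocyte list, of which Tyrobp was the highest, was 34.3 and 32.9 FPKM in hemicastrated mice, against 41.8 and 36.7 FPKM in control mice.

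The T cell members encode chains of the CD3 complex, which carries the signal of the T cell receptor into the cell. Cd3e (ENSMUSG00000032093, chromosome 9) was at 0.0523 FPKM in hemicastrated 1 and listed at 0 in hemicastrated 2, against 0.114 and 0.0450 FPKM in control mice. These values stood to each other as 1 and 0 fragments in hemicastrated mice and 3 and 1 fragments in control mice, with a largest deviation of 0.8%. Cd3g (ENSMUSG00000002033, chromosome 9) was listed at 0 in both hemicastrated libraries and was at 0.398 and 0.153 FPKM in control mice, which fits 3 and 1 fragments within 2.0%. These are the smallest whole numbers that fit, and multiples of them would fit as well. If they hold, a count of 0 still allows up to 3 fragments, or 0.53 FPKM of Cd3g in hemicastrated 1 and 0.47 FPKM in hemicastrated 2, so a difference between the groups was not detectable at this depth.

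The B cell members Cd79a and Cd79b encode the paired chains that signal for the B cell receptor. Cd79a (ENSMUSG00000003379, chromosome 7) was at 0.0450 FPKM in hemicastrated 1 and listed at 0 in hemicastrated 2, against 0.0315 FPKM in control 1 and 0 in control 2. That fits 1 fragment in each library above 0 (within 4.5%). Cd79b (ENSMUSG00000040592, chromosome 11) was listed at 0 in both hemicastrated libraries and was at 0.0845 and 0.0501 FPKM in control mice, which fits 2 and 1 fragments. All 4 lymphocyte members together were thus at the edge of detection in both groups, including the control libraries in which Cd52 was at 321.9 and 399.7 FPKM.

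The macrophage members were the ones measured with some precision. Csf1r (ENSMUSG00000024621, chromosome 18), the receptor for the growth factors on which macrophages depend, was at 1.94 and 1.79 FPKM in hemicastrated mice, against 2.93 and 1.98 FPKM in control mice. Both hemicastrated libraries lay just under the lower control. The log2 difference was -0.26 (SE 0.17), and it was -0.06 without control 1 and -0.45 without control 2. Adgre1 (ENSMUSG00000004730, chromosome 17), which encodes the macrophage antigen F4/80, was at 0.925 and 0.719 FPKM in hemicastrated mice, against 1.27 and 1.02 FPKM in control mice, again with no overlap and with the groups close together.

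Cd68 (ENSMUSG00000018774, chromosome 11), a lysosomal glycoprotein of phagocytes, was at 2.80 and 2.96 FPKM in hemicastrated mice, against 3.39 and 2.14 FPKM in control mice. The hemicastrated libraries lay between the controls, and the log2 difference of 0.06 (SE 0.19) moved to 0.30 without control 1 and -0.18 without control 2. Lyz2 (ENSMUSG00000069516, chromosome 10), the lysozyme gene of myeloid cells, was the highest of the 9 markers at 21.1 and 20.8 FPKM in hemicastrated mice, against 28.5 and 29.0 FPKM in control mice. The groups did not overlap, and the spread within each was small, with a mean of 20.97 ± 0.22 FPKM in hemicastrated mice and 28.75 ± 0.38 FPKM in control mice (SD, n = 2 each). Its log2 difference was -0.44 (SE 0.09). Lyz1, a close copy next to Lyz2, was at 0.134 FPKM or less in each library. How reads that match both copies were assigned is not known.

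Only 4 of the 10 members, namely Cd52, Csf1r, Cd68 and Lyz2, averaged 1 FPKM or more, the level from which genes were tested. Adgre1, at a mean of 0.984 FPKM, fell just under it. Across all 11343 tested genes, limma called 1.19% lower and 0.106% higher in hemicastrated mice at a Benjamini-Hochberg adjusted p under 0.05, or 1.3% in either direction. Among the 4 tested members, 1 was past this threshold (Cd52, chosen for its difference), and nothing is read from that count. Both hemicastrated libraries lay below both controls in 6 of the 10 members, namely Cd52, Cd3g, Cd79b, Csf1r, Adgre1 and Lyz2, and in 24.5% of the 18587 genes above 0 in any library. No member had both hemicastrated libraries above both controls, against 14.8% of those genes. As the members were chosen in this contrast, nothing is read from these counts either. The median log2 difference of the 9 markers was -0.09, beside a median of -0.03 over all tested genes.

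The level of Cd52 was set against the markers listed above 0 in all 4 libraries, namely Ptprc, Csf1r, Adgre1, Cd68 and Lyz2. These ratios carry the difference by which Cd52 was chosen. The ratio of Cd52 to Ptprc was 10.5 and 2.98 in hemicastrated mice, against 1531 and 2475 in control mice. Against Csf1r it was 0.718 and 1.18 in hemicastrated mice, and 110.0 and 202 in control mice. Against Adgre1 it was 1.51 and 2.94 in hemicastrated mice and 253 and 392 in control mice. Against Cd68 it was 0.497 and 0.716 in hemicastrated mice and 95.1 and 187 in control mice. Against Lyz2 it was 0.0659 and 0.102 in hemicastrated mice and 11.3 and 13.8 in control mice. Hemicastrated testes thus held Cd52 below Lyz2 and Cd68, near Csf1r, and above Adgre1 and Ptprc. Control testes held it above each of these markers.

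The summed level of the 9 markers was 27.02 and 26.98 FPKM in hemicastrated mice, against 36.9 and 34.6 FPKM in control mice. Lyz2 made up 77.1% to 83.9% of that sum. Without Lyz2 the sum was 5.90 and 6.18 FPKM in hemicastrated mice and 8.42 and 5.55 FPKM in control mice, and the groups overlapped. Cd52 stood at 0.0515 and 0.0784 times the sum of the 9 markers in hemicastrated mice, against 8.72 and 11.6 times in control mice. Cd52 in control testes was therefore higher than the summed 9 markers. The margin depends on the genes summed. The other genes of the macrophage and monocyte list, mostly Aif1, summed to 238 and 244 FPKM in control mice. Cd52 stood at 1.35 and 1.64 times that sum. Aif1 alone was at 203 and 210 FPKM in control mice, and C1qb, the next highest in that sum, at 8.75 and 9.20 FPKM. Which cells held the Aif1 RNA was not tested.

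**Figure D2:**
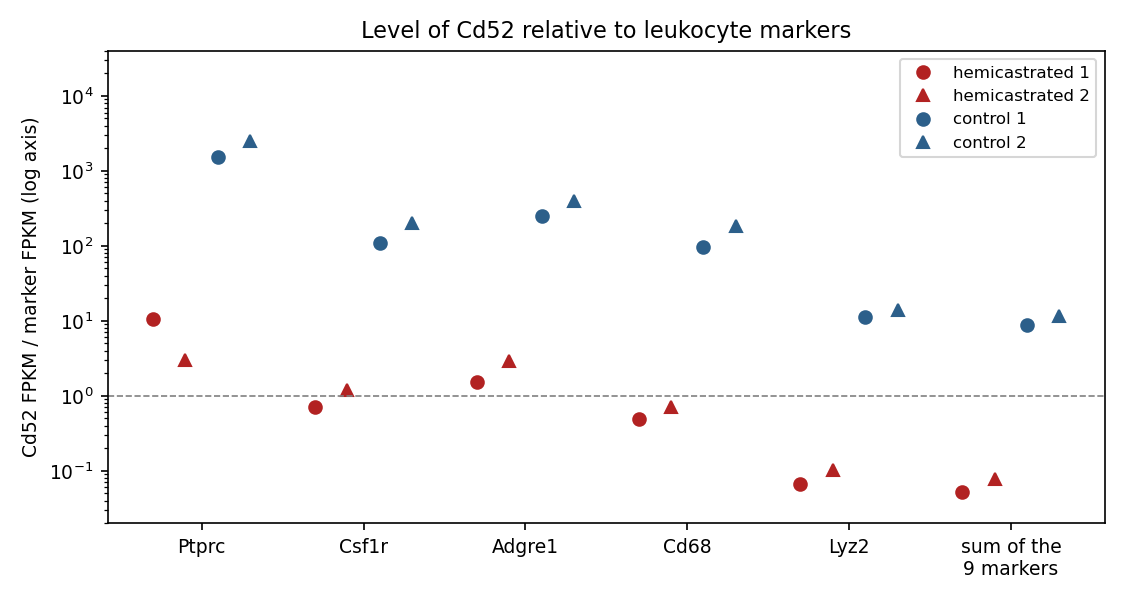
FPKM of Cd52 divided by the FPKM of each marker listed above 0 in all 4 libraries, and by the sum of the 9 markers, on a logarithmic axis with 1 point per library. The dashed line marks equal levels. For each of these markers and for the sum, both hemicastrated points lie below both control points, from 0.0515 to 10.5 in hemicastrated mice and from 8.72 to 2475 in control mice.

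Beyond the members, 110 other genes in 7 lists of leukocyte markers were examined in the same fit. Of these, 29 were tested, 2 were lower (S100a8 and Cd74), 0 were higher, and the median log2 difference was -0.09. Over all tested genes, 1.19% were lower and 0.106% higher. At an unadjusted p under 0.05 in limma, 6 were lower and 3 higher. Of the 105 genes above 0, 33 had both hemicastrated libraries below both controls and 14 had both above, beside 24.5% and 14.8% of all genes above 0.

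Among 9 tested genes of the list for leukocytes of all kinds, 0 passed the threshold in either direction, and 2 were lower at an unadjusted p under 0.05 in limma. The signalling adaptor gene Tyrobp was at 7.84 and 7.71 FPKM in hemicastrated mice, against 9.98 and 9.52 FPKM in control mice (limma adjusted p = 0.416). Dock2, a regulator of leukocyte migration, was at 4.16 and 6.11 FPKM in hemicastrated mice, against 5.16 and 5.47 FPKM in control mice (limma adjusted p = 0.940). Fcer1g, the shared chain of Fc receptors, had a log2 difference of -0.37 and Vav1, an exchange factor of blood cells, one of 0.27. Fcer1g and Vav1 averaged 4.09 and 2.80 FPKM in control mice. From such levels a gene cannot fall by as much as the -7.04 of Cd52 on this scale, so the sizes are not compared.

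T cell genes differed widely in level. Cd247, the zeta chain of the same receptor complex, was at 4.92 and 6.07 FPKM in hemicastrated mice, against 5.62 and 5.04 FPKM in control mice. Cd3d, the delta chain, was at 2.44 and 5.44 FPKM in hemicastrated mice and 4.03 and 5.22 FPKM in control mice. Both stood far above Cd3e in each library, although all these chains form 1 complex in T cells. Of the 3 tested genes of the list, 0 passed the threshold, with Lck, the kinase that starts receptor signalling, at a log2 difference of -0.39 (limma adjusted p = 0.437). One of the 3 was lower at an unadjusted p under 0.05. Trac, Trbc1 and Trbc2, of the receptor's constant regions, were not analysed here.

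The natural killer and B cell lists held 1 and 2 tested genes, and 0 passed the threshold in limma. The chemokine gene Ccl5 was at 1.87 and 2.60 FPKM in hemicastrated mice, against 3.44 and 3.37 FPKM in control mice (limma adjusted p = 0.382), and it was the 1 gene of both lists with an unadjusted p under 0.05. Pax5, the transcription factor that maintains B cell identity, was at 2.47 and 1.52 FPKM in hemicastrated mice and 2.44 and 3.76 FPKM in control mice. Ighm, Ighd and Igkc, of the immunoglobulins, were not analysed here.

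Macrophage genes outside the members numbered 20. Of the 7 tested, 0 passed the threshold and 0 had an unadjusted p under 0.05 in limma, and the median log2 difference was -0.07. Over all 20, both hemicastrated libraries lay below both controls in 6 and above both in 2, beside 24.5% and 14.8% of all genes above 0. Nothing is read from these counts. Among those too low for the test, and named after its values were seen, the chemokine receptor gene Cx3cr1 was at 0.515 and 0.537 FPKM in hemicastrated mice, against 1.03 and 1.11 FPKM in control mice. The complement gene C1qb was at 10.1 and 6.98 FPKM in hemicastrated mice, against 8.75 and 9.20 FPKM in control mice. C1qa and C1qc, which encode the other chains of the same protein, had log2 differences of -0.12 and 0.00. Aif1 stood far above the rest of the list, at 219 and 213 FPKM in hemicastrated mice and 203 and 210 FPKM in control mice.

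Antigen presentation genes had log2 differences of both signs. Cd74, the invariant chain that escorts MHC class II molecules, was at 9.14 and 10.8 FPKM in hemicastrated mice, against 17.2 and 17.7 FPKM in control mice (log2 difference -0.75, limma adjusted p = 0.0463). It missed the threshold without hemicastrated 1 (adjusted p = 0.114, limma), without control 1 (0.306) and without control 2 (0.324), and in 4 of the other 9 alternatives tried. Without hemicastrated 2 it passed (adjusted p = 0.0323, limma). The class II chain gene H2-Eb1, named after its values were seen, was at 2.89 and 1.59 FPKM in hemicastrated mice, against 0.383 and 0.0458 FPKM in control mice (log2 difference 1.40, limma adjusted p = 0.0723). H2-Ab1 and H2-Aa had log2 differences of 0.66 and 0.83, and neither passed the threshold. Of the 6 tested genes of the list, 1 was lower and 0 were higher.

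S100a8, a calcium-binding protein gene of neutrophils and of some epithelia, was lower. It was at 0.192 FPKM in hemicastrated 1 and listed at 0 in hemicastrated 2, against 5.74 and 5.32 FPKM in control mice (log2 difference -2.58, SE 0.15, limma adjusted p = 0.000613). Its partner in neutrophils, S100a9, was at 0 and 0.136 FPKM in hemicastrated mice and 0.894 and 0.132 FPKM in control mice. The neutrophil genes Ly6g and Cxcr2 were listed at 0 in all 4 libraries. S100a8 was the only tested gene of the granulocyte and mast cell list, and it reached the test through its control values alone.

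**Figure D3:**
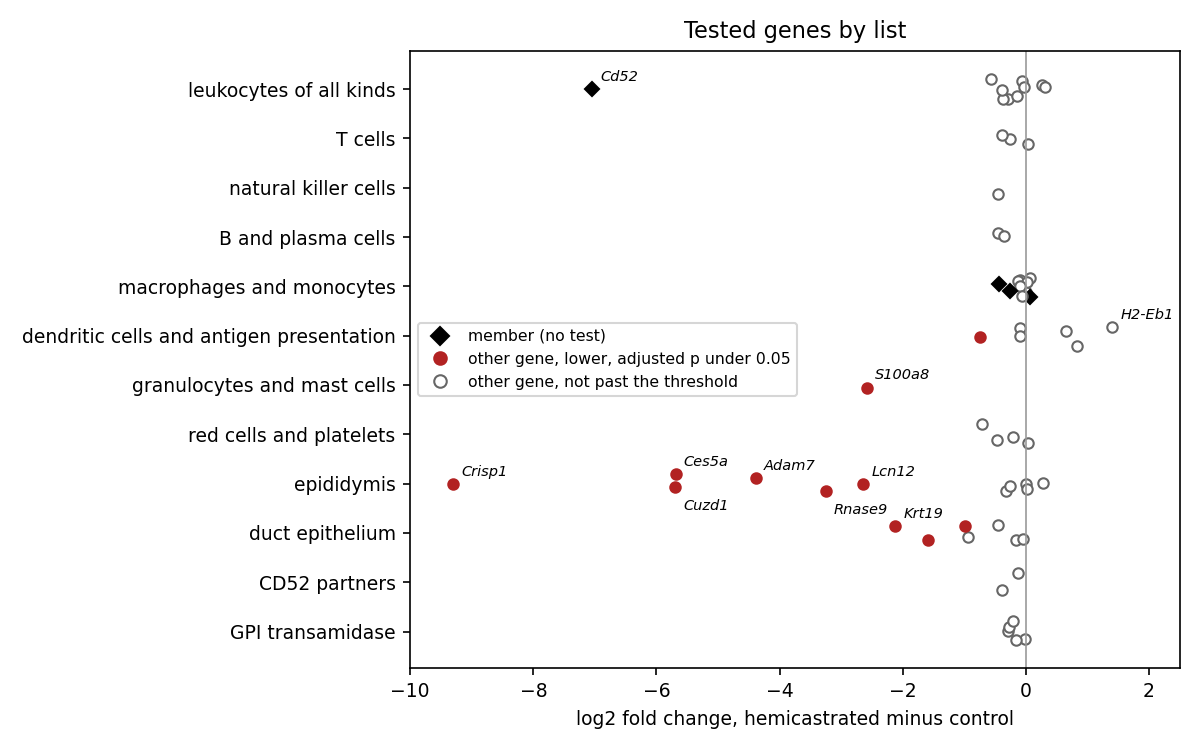
Log2 difference, hemicastrated minus control, of log2(FPKM + 1) for every tested gene in 12 lists, 1 point per gene. Black diamonds are members, filled red points are other genes past an adjusted p of 0.05 in limma, open points are the rest, and vertical scatter within a row carries no value. Apart from Cd52, the leukocyte genes past the threshold are S100a8 (-2.58) and Cd74 (-0.75), and H2-Eb1 (1.40), H2-Aa (0.83) and H2-Ab1 (0.66) lie to the right without passing it. The filled points of the epididymis and duct epithelium rows are 6 and 3 genes, all to the left.

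The other known source of CD52 is the epithelium of the epididymis, and some genes of that duct were lower in hemicastrated mice. Of 27 listed epididymis genes, 11 were tested, 6 were lower (1.19% of all tested genes), 0 were higher (0.106%), and the median log2 difference was -2.64. This list was written with the fall of Crisp1, Adam7, Ces5a and Cuzd1 already known, so its count is no independent evidence of a direction. Crisp1, Cuzd1, Adam7, Rnase9 and Lcn12 also averaged under 1 FPKM in hemicastrated mice. They reached the test through their control values alone, which favours a lower call and a negative median. Rnase9, a secreted protein of the epididymis, had 0 FPKM in hemicastrated 1 and 0.0490 FPKM in hemicastrated 2, against 6.59 and 11.5 FPKM in control mice (log2 difference -3.25, SE 0.24, limma adjusted p = 0.00162). Lcn12, a lipocalin that carries small lipophilic molecules in the epididymal lumen, was listed at 0 in both hemicastrated libraries and was at 6.99 and 3.84 FPKM in control mice (limma adjusted p = 0.00449, and 0.0511 when all genes above 0 were tested).

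Several defining genes of the epididymis were listed at 0 or very low in control mice too. Lcn5, Lcn6, Lcn8 and Lcn10 were listed at 0 in all 4 libraries. Gpx5, a secreted peroxidase of the epididymis, was listed at 0 in both hemicastrated libraries and was at 0.372 and 0.444 FPKM in control mice. The summed level of the list was 257 and 297 FPKM in hemicastrated mice, against 976 and 1273 FPKM in control mice. In hemicastrated mice most of that sum was Cst8, at 206 and 242 FPKM, a cystatin gene that germ cells also express. The part of these cells in the Cd52 difference was not tested.

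The keratin genes Krt8, Krt18 and Krt19, of simple epithelium, were lower along with Cd52. Krt19 had 0 FPKM in hemicastrated 1 and 0.0375 FPKM in hemicastrated 2, against 3.01 and 3.86 FPKM in control mice (log2 difference -2.12, SE 0.16, limma adjusted p = 0.00169). Krt18 was at 0.124 and 0.258 FPKM in hemicastrated mice, against 2.63 and 2.51 FPKM in control mice (limma adjusted p = 0.00449, and 0.051 without control 2). Its partner Krt8 was at 0.494 and 0.560 FPKM in hemicastrated mice, against 2.02 and 2.06 FPKM in control mice (limma adjusted p = 0.0292). Krt8 missed the threshold whichever library was left out (limma adjusted p of 0.057 to 0.187).

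Of 7 tested genes of the duct epithelium list, 3 were lower (1.19% of all tested genes) and 0 higher (0.106%). Their median log2 difference was -0.94. The 3 lower genes, Krt8, Krt18 and Krt19, averaged under 1 FPKM in hemicastrated mice. They were tested through their control values alone, so this count is no independent evidence of a direction. Both hemicastrated libraries lay below both controls in 15 of its 15 genes (24.5% of all genes above 0), among them the adhesion genes Epcam and Cdh1. The list was written with earlier results of these data known, so nothing is read from this count either. Epcam was at 9.51 and 7.44 FPKM in hemicastrated mice, against 12.0 and 11.8 FPKM in control mice (limma adjusted p = 0.307). Pax8, a transcription factor of the Wolffian duct and its derivatives, was at 0.466 and 0 FPKM in hemicastrated mice, against 1.34 and 1.41 FPKM in control mice.

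**Figure D4:**
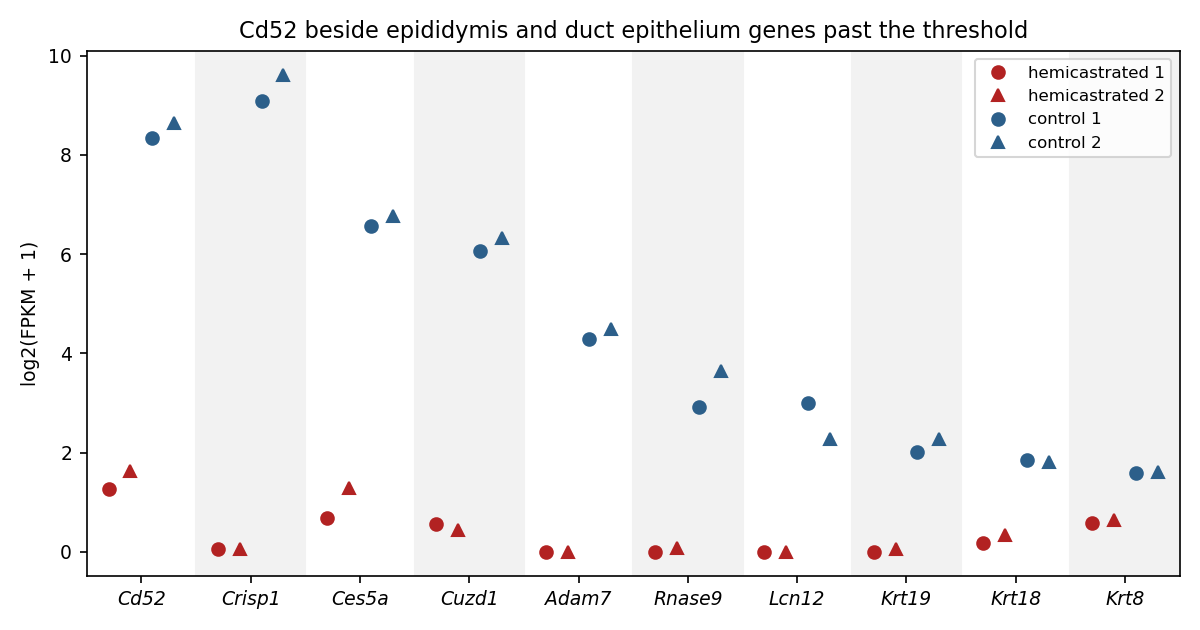
Level of Cd52 and of the 9 epididymis and duct epithelium genes that were lower in limma, as log2(FPKM + 1), 1 point per library, with hemicastrated mice in red and control mice in blue. In each gene both hemicastrated points lie below both control points, as they do for Cd52, at 1.39 and 2.11 FPKM in hemicastrated mice and 321.9 and 399.7 FPKM in control mice.

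Cd52 and Crisp1, the sperm-coating protein gene with the largest difference in that list, did not keep a fixed ratio. The ratio of Cd52 to Crisp1 was 30.8 and 54.1 in hemicastrated mice, against 0.591 and 0.508 in control mice. Crisp1 was at 0.0453 and 0.0391 FPKM in hemicastrated mice, against 545 and 786 FPKM in control mice. In hemicastrated testes Cd52 stood above the trace of Crisp1, and Csf1r was at 1.94 and 1.79 FPKM. Of the same list as Crisp1, Cuzd1 was at 0.466 and 0.362 FPKM and Ces5a at 0.612 and 1.44 FPKM in these mice. The source of the Cd52 that remained was not tested.

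The tested genes whose profile over the 4 libraries was most like that of Cd52 were named by the Euclidean distance between gene-centred log2(FPKM + 1) values. The nearest 10 were Defb28, Wfdc15b, Serpina16, Spink8, Defb2, Ces5a, Cuzd1, Serpina1f, Spink10 and Gpx3, at distances of 0.63 to 1.73. In all 10 both hemicastrated libraries lay far below both controls, which the choice by likeness to Cd52 fixes. Gpx3, a secreted glutathione peroxidase, was at 5.51 and 2.80 FPKM in hemicastrated mice, against 213.6 and 242 FPKM in control mice. Spink10, of the Kazal-type protease inhibitors, was listed at 0 in both hemicastrated libraries and was at 33.9 and 48.3 FPKM in control mice. On the same measure Lyz2 lay at 6.61, with 536 of the 11343 tested genes nearer to Cd52, Csf1r at 6.81 with 1430 nearer, and Cd68 at 7.13 with 8232 nearer. A gene with equal levels in all libraries lies at about 7 by the size of the Cd52 difference alone, so these distances do not set the markers apart from other genes.

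Cd52 (ENSMUSG00000000682) lies on the minus strand of chromosome 4, from 134082448 to 134095082 in GRCm38, as annotated by GENCODE M21. Its coding transcript has 2 exons, 134094934 to 134095082 and 134093536 to 134093900, with 514 bases in all and a reading frame of 74 codons. Crybg2, on the plus strand, overlaps the gene. Its exons share 0 bases with that coding transcript and 172 of the 1187 exonic bases of all 3 annotated Cd52 transcripts. Crybg2 was at 2.59 and 4.37 FPKM in hemicastrated mice, against 1.89 and 2.40 FPKM in control mice (limma adjusted p = 0.518), so it did not share the pattern of Cd52. The library protocol describes no strand marking, and reads from the shared bases cannot be told apart.

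The flanking genes differed little beside Cd52. Ubxn11, next to Cd52 on the plus strand, was at 144.0 and 136 FPKM in hemicastrated mice, against 134 and 124 FPKM in control mice (limma adjusted p = 0.693). Zfp683, beyond Crybg2, was listed at 0 in all 4 libraries. On the other side, beyond Ubxn11, Sh3bgrl3 was lower, at 8.85 and 8.46 FPKM in hemicastrated mice, against 17.9 and 16.4 FPKM in control mice (log2 difference -0.91, limma adjusted p = 0.0136). Sh3bgrl3 was named after its values were seen, it overlaps the end of Ubxn11, and it missed the threshold without control 1 (adjusted p = 0.163, limma) or control 2 (adjusted p = 0.113, limma).

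**Figure D5:**
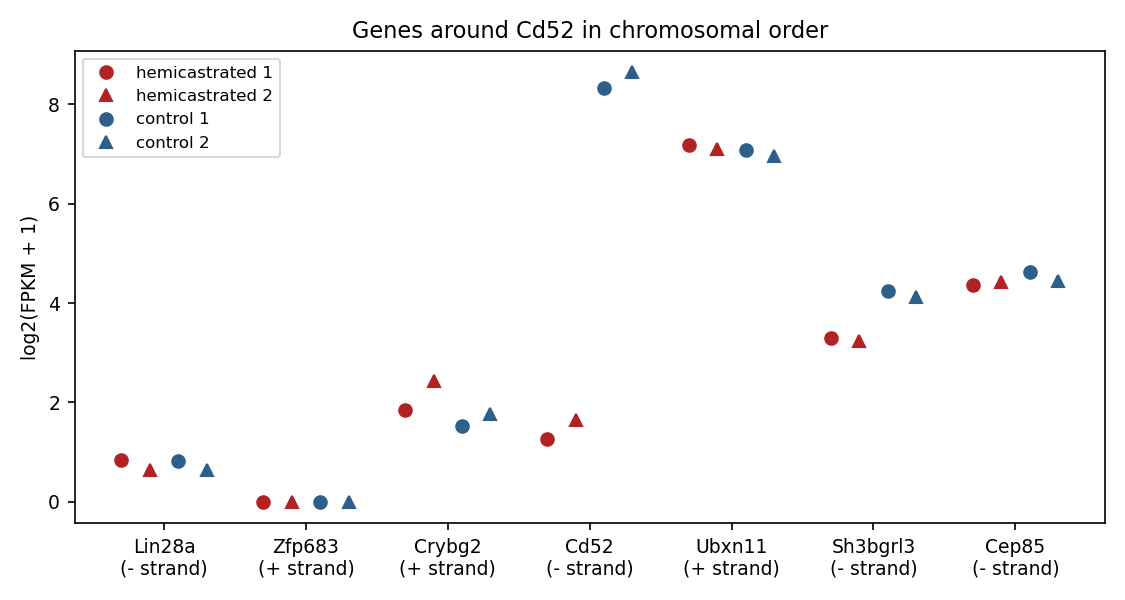
Level of Cd52 and of the 3 table genes on each side of it, in chromosomal order with their strand, as log2(FPKM + 1), 1 point per library. Cd52 is the one gene whose hemicastrated points, at 1.39 and 2.11 FPKM, stand far from its control points, at 321.9 and 399.7 FPKM.

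Genes that act with CD52 were low or did not pass the test. In human T cells soluble CD52 works with HMGB1 and a Siglec receptor, and then through the phosphatase SHP-1, to hold back receptor signalling. Of the 5 mouse genes listed for this, 2 were tested and 0 passed the threshold, with 1 lower at an unadjusted p under 0.05 in limma. Hmgb1 was at 1.35 and 1.10 FPKM in hemicastrated mice, against 1.33 and 1.54 FPKM in control mice. Siglecg was at 0 and 0.0198 FPKM in hemicastrated mice, against 0.0161 and 0 FPKM in control mice.

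The GPI transamidase attaches the anchor that CD52 needs at the cell surface. All 5 of its listed subunit genes were tested and 0 passed the threshold in limma, with 2 lower at an unadjusted p under 0.05 and a median log2 difference of -0.21. Pigk, the catalytic subunit, was at 18.9 and 20.5 FPKM in hemicastrated mice, against 20.7 and 19.4 FPKM in control mice (limma adjusted p = 0.961). Pigs, another subunit, was at 12.5 and 12.6 FPKM in hemicastrated mice and 15.6 FPKM in each control library (limma adjusted p = 0.364).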

How the data were processed

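Per the file headers, the deposited table holds FPKM, with 1 value for each gene in each library. Cufflinks 2.2.1, TopHat2 2.0.11 and the GRCm38 build are named in the submitters' processing notes, with no role or order. The annotation behind the values was not given in the sources used here. Symbols and positions came from GENCODE M21, which named 21806 of 22073 identifiers.

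The 11343 genes that averaged 1 FPKM or more were put on the log2(FPKM + 1) scale. The mean was over all 4 libraries, so a gene near 0 in either group was tested only where the other group was high. The groups were then compared by limma 3.58.1 (R 4.3.3) with a trended variance, and two-sided p-values were Benjamini-Hochberg adjusted over all of them. With 2 libraries per group, an exact permutation test of 1 gene could not fall under 0.05. The fit was tested on simulated data.

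The value of 1 fragment was taken from genes under 0.1 FPKM in both libraries of a pair, as the commonest ratio. Whole fragments were accepted within 5% of whole numbers.

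Members and lists were chosen with earlier results of these data known. Beside the members, up to 4 genes per list were named, called ones first and then those with the highest mean, and other genes were named after their values were seen. The 12 alternatives changed pseudocount, filter, scaling, variance model, libraries or pairing.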

Additional observations from a re-analysis of the deposited data

How the results depend on the processing

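The log2 difference of Cd52 lay between -7.62 and -6.85 under 12 alternatives, and that of Lyz2 between -0.46 and -0.42. Cd68 alone among the tested members changed sign (-0.18 to 0.30). Genes lower after hemicastration numbered 135 of 11343, 63 among genes averaging 5 FPKM or more (fewer tested) and 78 to 156 when each library was left out in turn, the lowest without control 2. Genes higher numbered 12, 3 with no filter, 7 among genes averaging 5 FPKM or more, 30 with the replicate block and 0 to 26 when each library was left out, with 0 in limma without control 2, where 369 had an unadjusted p under 0.05. Lower genes among the lists, members left out, numbered 11, 5 under that stricter filter, and 8 to 11 with a library left out. Of those 11 genes, 7 stayed past the threshold in each alternative that tested them. Same-numbered libraries share only a number (correlation of deviations 0.0137), and under the replicate block 167 genes were lower. H2-Eb1 passed the threshold under the replicate block (limma adjusted p = 0.00417), under quantile normalization (0.0461) and without hemicastrated 2 (0.02). Depth limits the 4 lymphocyte members to a few fragments.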

Other observations

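The mast cell protease genes Tpsb2, Cma1 and Mcpt4, named after their values were seen, had FPKM above 0 in the control libraries alone. Tpsb2 was listed at 0 in both hemicastrated libraries and was at 0.308 and 0.245 FPKM in control mice. Cma1 and Mcpt4 were likewise listed at 0 in both hemicastrated libraries, against 0.401 and 0.142 FPKM of Cma1 and 0.339 and 0.0578 FPKM of Mcpt4 in control mice. Of the same list, Cpa3 was at 0 and 0.0326 FPKM in hemicastrated mice, against 0.114 and 0.511 FPKM in control mice. Prg2 was above 0 in the hemicastrated libraries alone, at 0.0837 and 0.0739 FPKM. None of these genes reached the mean of 1 FPKM needed for the test. The number of fragments behind such low values was not worked out. Among genes of red cells and platelets, 4 were tested and 0 passed the threshold in limma, with 1 lower at an unadjusted p under 0.05. The platelet chemokine gene Pf4 was at 2.74 and 1.79 FPKM in hemicastrated mice, against 4.33 and 4.32 FPKM in control mice (log2 difference -0.72, limma adjusted p = 0.191). The beta-globin gene Hbb-bs was at 20.3 and 11.3 FPKM in hemicastrated mice, against 21.8 and 20.9 FPKM in control mice.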
